A study of Mus musculus with 32 samples.

Results

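The subject is the difference between 2 differences: the change from R42A to MD in neural cultures minus the change from R42A to MD in embryonic stem cells (ESC). It was measured in mouse cells in which an MD tag was put on Smarce1, either as it is or with the change R42A. The members were the 20 libraries with the clone labels A04, A10, 09 and 30, of 32 libraries in the series. They form 8 clone sums in 4 groups. The labels A04 and A10 are R42A and the labels 09 and 30 are MD. Each has 3 libraries from ESC and 2 from neural cultures. Y-linked genes were left out, which removed 21 genes that passed the filter on low counts.

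All groups come from strain 129S5/SvEvBrd, and the control clones carry the tag too, in its R42A form. MD was taken to stand for mitotic degron, a stretch of cyclin B1 by which a protein is degraded at the end of cell division, and R42A for a form that no longer works. The labels do not spell this out. ESC were kept in LIF and serum on gelatin. Neural cultures were taken on day 6 of direct induction in a medium whose name the labels write both RHA-B and RHB-A. The 12 other ESC libraries, from R42A clones A01 and A02 and MD clones 45 and 47, form a second series and were used only beside the results. They share no library with the interaction.

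The product of Smarce1, BAF57, belongs to the SWI/SNF (BAF) complexes, which move and evict nucleosomes with energy from ATP. These complexes exchange subunits as stem cells become neural progenitors and then neurons. In ESC they act beside the pluripotency factors, and in neural cells they take part in leaving the progenitor state. A gene whose response to the tag differs between stages is therefore described here by its level in all 4 groups.

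Total counts per library ran from 44324124 to 96424439 in ESC and from 44426445 to 62803915 in neural cultures. The culture labels fitted the markers. Pou5f1, a core pluripotency factor, stood at 895.0 ± 58.1 CPM in R42A ESC and 9.95 ± 0.127 CPM in R42A neural cultures (CPM being counts scaled to a common library total, SD, n = 2 clones). The neural progenitor gene Sox1 stood at 9.07 ± 4.74 and 173.4 ± 4.94 CPM in the same groups. Smarce1 itself was at 132.8 and 106.3 CPM in R42A ESC, 117.9 and 119.1 CPM in MD ESC, 229.9 and 232.4 CPM in R42A neural cultures and 298.5 and 288.4 CPM in MD neural cultures. Its RNA level says nothing of the tag or of the protein. Its interaction of 0.36 ± 0.13 on the log2 scale (SE) was not called (adjusted p = 0.0995).

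The neural labels did not carry the differences seen between the ESC sums of those names. In ESC the sums of A04 and A10 differed by a median of 0.158 in absolute log2 ratio, and in neural cultures by 0.034. Chromosome 8 was higher in A04 than in A10 by a median of 0.3 in ESC and by 0.009 in neural cultures. Across 10167 genes, which are not independent, the A04 against A10 difference in ESC and that in neural cultures had a Pearson r of -0.134. Neural R42A libraries of different labels differed by 0.0456 to 0.0784 and those of 1 label by 0.0664 to 0.0855, so libraries with different labels were no further apart. In ESC, R42A libraries of different clones differed by 0.1424 to 0.27 and those of 1 clone by 0.0521 to 0.2701. These ESC ranges overlap, and how much of the ESC difference lies between clones rather than between libraries was not tested. Whether the neural labels stand for separate clones was not tested. Stage and library run cannot be told apart, since the library numbers of the neural cultures form a run of their own. With 2 clones per genotype, a difference between clones and an effect of MD cannot be told apart either, and "MD effect" below means the difference between these clones.

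MD cells differed from R42A cells on chromosomes 8 and 11 at both stages. Over genes above 8 CPM, the median MD effect on chromosome 8 was -0.4 in ESC and -0.36 in neural cultures, and on chromosome 11 it was 0.48 and 0.49. The interaction took these shared shifts out: its median ran from -0.08 to 0.05 over 20 chromosomes, and between 18.0% and 26.5% of tested genes were called on each.

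**Figure D1:**
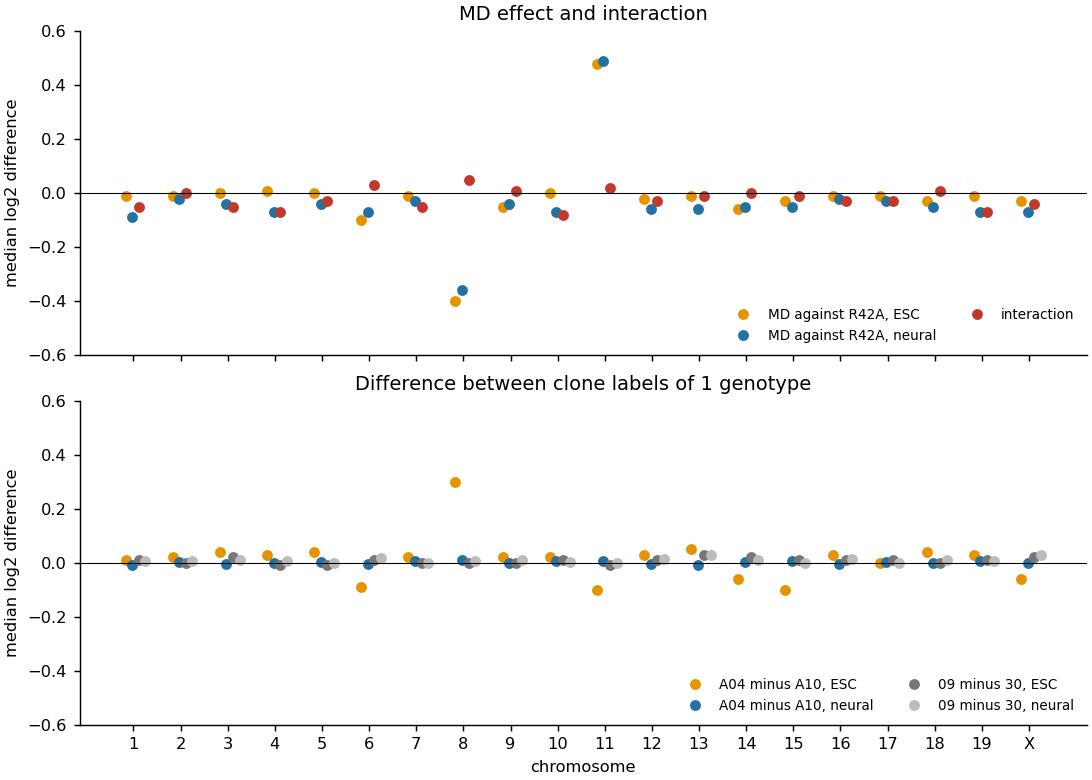
Median log2 difference of genes on each chromosome (x axis), for the MD effect at each stage and the interaction (upper panel) and for the difference between clone labels of 1 genotype (lower panel). Chromosomes 8 and 11 stand apart in the MD effect at both stages but not in the interaction, and A04 differs from A10 on chromosome 8 in ESC by 0.3 but in neural cultures by 0.009.

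The MD effect depended on the stage for 5467 of 23823 genes tested (22.9%) in the quasi-likelihood test at an adjusted p under 0.05. It was more positive in neural cultures, written below as "higher", for 2825 genes (11.9%), and more negative, "lower", for 2642 (11.1%). The difference was at least 2-fold for 2484 of them. Taken alone, the MD effect was called for 25.7% of genes in ESC and 33.7% in neural cultures. Over all tested genes the effects at the 2 stages had a Pearson r of 0.107 across genes, which are not independent replicates.

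A called gene is described as reversed where the MD effect was called at both stages with opposite signs. There were 936 such genes, 3.93% of those tested, of which 461 were higher and 475 lower. The MD effect was called in neural cultures but not in ESC for 2451, in ESC but not in neural cultures for 1396, at both stages in 1 direction for 402, and at neither stage for 282. A stage without a call is not shown to lack an effect. The called interaction is the test of the difference.

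The spread that these calls rest on is that among 8 sums. When MD label 09 was left out the count fell to 77 genes, 31 of them reversed, and when label 30 was left out to 114 and 40. These fits have 1 MD sum at each stage, and the spread is then set by the R42A pairs alone. The sign of the interaction was kept by all 5467 genes in both fits. This follows in part from their choice as called genes and from the sums that these fits share with the main fit. Leaving out A04 gave 8752 calls and leaving out A10 gave 7765. The ESC sums of A04 and A10 differ more than the other 3 same-genotype pairs, and with 1 of these 2 ESC sums left out and all neural sums kept, 10445 or 9604 genes were called.

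The ESC side of the pattern could be set beside the second series, in which 23.3% of 20885 genes were called. Of 919 reversed genes tested there, 884 had the sign of the first series in ESC, 412 were called with that sign and 1 with the other. Of 1345 genes called in ESC only, 1308 had the same sign and 675 were called with it. Over all genes tested in both series, 78.8% had the same sign. The reversed genes were chosen for a called ESC effect, so a share above that of all genes follows in part from the choice. The neural side has no second set of libraries here.

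**Figure D2:**
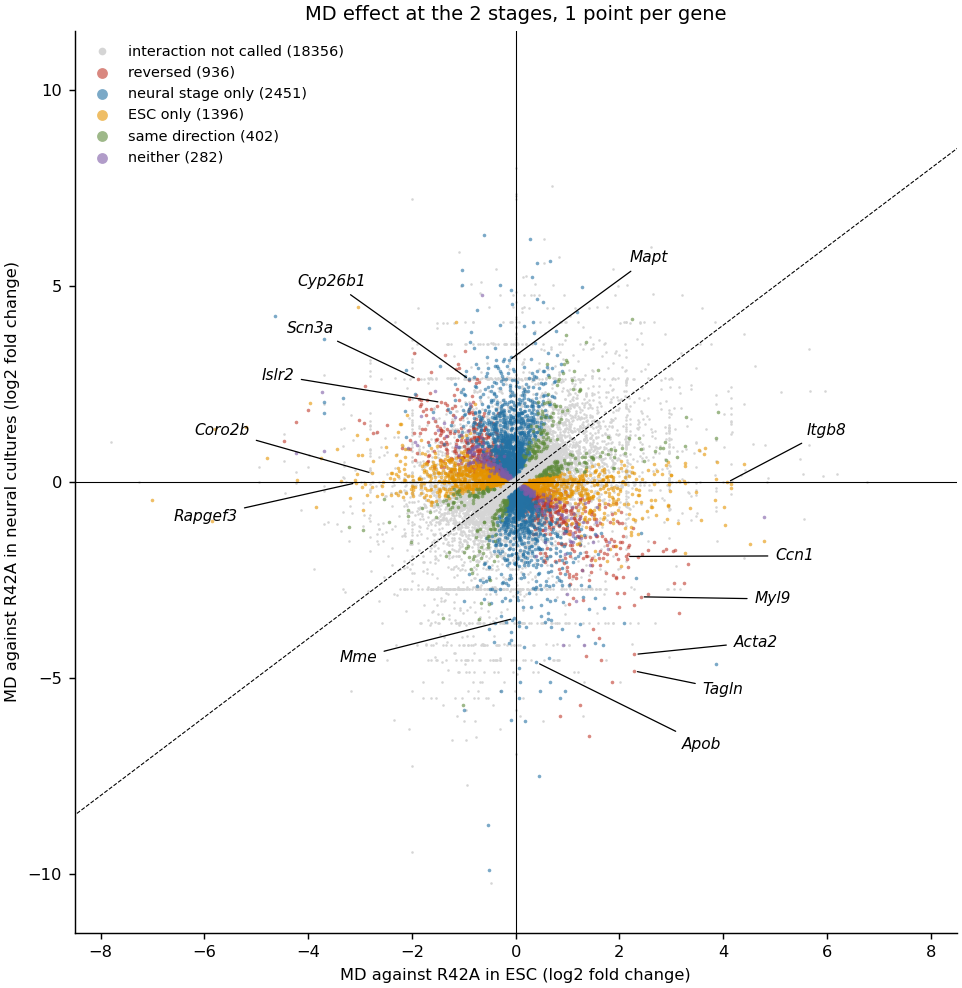
MD against R42A log2 fold change in ESC (x axis) and in neural cultures (y axis), 1 point per gene, coloured by the pattern of the called interaction. The dashed line marks equal effects. Tagln and Acta2 lie in the lower right quadrant (2.28 and 2.29 in ESC, -4.82 and -4.4 in neural cultures) and Scn3a in the upper left (-1.89 and 2.62).

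Genes of the contractile actin cytoskeleton gave the largest reversals among the genes named by size. Most of them are targets of serum response factor (SRF), which with its actin-sensing cofactors of the MRTF family binds the CArG box of muscle and cytoskeletal promoters. Tagln, the actin-binding protein transgelin (chr9:45929619-45936058, minus strand in mm10), was at 3.34 and 10.7 CPM in R42A ESC clones A04 and A10 and at 34.6 and 33.3 CPM in MD ESC clones 09 and 30. In neural cultures it was at 101.8 and 107.9 CPM in R42A and 4.06 and 3.36 CPM in MD. The libraries of the 2 genotypes did not overlap at either stage, and their order was opposite. Tagln rose 4.84-fold with MD in ESC and fell 28.2-fold in neural cultures, an interaction of -7.09 ± 0.68 (SE, adjusted p = 0.00101). Its log2 MD effect in second-series ESC was 3.41, of the same sign but not called (adjusted p = 0.0996).

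Acta2, smooth muscle actin (chr19:34241090-34255590, minus strand), followed the same order, with 1.39 and 6.11 CPM in R42A ESC, 18.4 and 18.2 in MD ESC, 81.6 and 83.3 in R42A neural cultures and 4.16 and 3.64 in MD neural cultures. Its interaction was -6.69 ± 0.81 (adjusted p = 0.00214), with a log2 MD effect of 3.71 in second-series ESC (adjusted p = 0.0155). Myl9, a regulatory light chain of non-sarcomeric myosin, was at 4.95 and 6.64 CPM in R42A ESC and 31.2 and 30.2 in MD ESC. In neural cultures it was at 27.7 and 28.2 CPM in R42A and 4.05 and 3.29 in MD, so MD ESC and R42A neural cultures stood at a like level. The Myl9 interaction of -5.34 ± 0.22 (adjusted p = 0.000182) was called in each of 35 alternatives, those without 09 or 30 included. Actc1, cardiac actin, was low throughout, with means under 3 CPM in each group, and its interaction was -5.63 ± 0.57 (adjusted p = 0.00123).

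Of 22 tested genes of the smooth muscle and SRF list, 17 were called lower and 0 higher, against 11.1% lower over all genes. Of the 22, 9 were reversed, against 3.93% over all genes. The reversed members were Tagln, Acta2, Actc1, Myl9, Cnn1, Tpm1, Cnn2, Actg2 and Srf itself, whose interaction was -1.34. The list's median MD effect was 0.7 in ESC and -1.25 in neural cultures, and its median interaction was -1.56, against 0.02 over all tested genes. Vcl, Flna, Csrp1 and Actn1, which link actin to membranes or cross-link it, were called lower with an MD effect called in neural cultures alone. Of the SRF cofactors on the list, Mrtfb was called lower (-0.33 ± 0.08, adjusted p = 0.0229), and Mrtfa and Myocd were not called, nor were Fhl2, Mylk and Des.

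The promoter windows of these genes are shown because 9 members were reversed and SRF binds a known sequence. A window holds 250 bases before and 50 after the gene's RefSeq start on GRCm38.p6, 300 in all. Both strands were searched for a perfect CArG box. Of the 9 reversed genes 7 had a window, and 4 of these held the motif (Cnn2, Myl9, Srf and Actc1), against 1.63% of 32851 windows. The genes were listed as SRF targets, so a share above that of all windows follows in part from the list. Members that were not reversed were not searched as a set, so the motif is not tied to the reversal. The motif began 161 bases before the start of Myl9 and 82 and 62 bases before that of Srf. A match is a description and not a binding site, and the windows of Acta2, Cnn1 and Tpm1 do not hold these letters in that form. The CArG boxes are in capitals in the windows of Myl9 (chr2:156775214-156775513, plus strand) and Srf (chr17:46556113-46556412, minus strand).
Myl9: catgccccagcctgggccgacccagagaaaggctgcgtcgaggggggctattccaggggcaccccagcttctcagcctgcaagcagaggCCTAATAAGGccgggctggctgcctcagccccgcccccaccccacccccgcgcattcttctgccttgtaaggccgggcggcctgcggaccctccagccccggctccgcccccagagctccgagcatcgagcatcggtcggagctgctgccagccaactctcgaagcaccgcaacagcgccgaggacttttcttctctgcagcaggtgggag
Srf: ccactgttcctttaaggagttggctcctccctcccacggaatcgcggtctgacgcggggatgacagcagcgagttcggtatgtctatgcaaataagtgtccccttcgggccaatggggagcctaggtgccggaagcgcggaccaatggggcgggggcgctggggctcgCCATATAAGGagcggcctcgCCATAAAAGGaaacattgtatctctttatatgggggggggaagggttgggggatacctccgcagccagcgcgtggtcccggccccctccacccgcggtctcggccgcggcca

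Of 14 tested genes in the list of YAP targets and partners, 7 were called lower and 0 higher, against 11.1% lower over all genes, and 7 were not called. YAP is the effector of Hippo signalling and acts through TEAD factors. Ccn1, a secreted matrix-associated protein, was at 6.2 and 11.3 CPM in R42A ESC, 39.4 and 37.3 in MD ESC, 71.2 and 69.7 in R42A neural cultures and 19.4 and 18.2 in MD neural cultures. It rose 4.39-fold with MD in ESC and fell 3.74-fold in neural cultures, with an interaction of -4.04 ± 0.34 (adjusted p = 0.000688). The related Ccn2 had 15.4 and 18.2 CPM in R42A ESC and 44.6 and 45.7 in MD ESC, against 81.4 and 76.8 in R42A neural cultures and 30.6 and 29.5 in MD neural cultures. The 6 reversed members of 14, against 3.93% over all genes, were Ccn1, Ccn2, Ajuba, Amotl2, Lats2 and Yap1. The TEAD factors themselves, Tead1, Tead2 and Tead4, were not called, nor were Wwtr1 (0.39) and Nuak2 (0.68), of the other sign. Thbs1, a secreted matrix protein, had an interaction of -4.28 ± 0.7 (adjusted p = 0.00645). Its levels were 2.5 and 9.71 CPM in R42A ESC, 33.8 and 28.9 in MD ESC, 282.3 and 279.5 in R42A neural cultures and 74.0 in both MD neural sums. It was not called when no filter on low counts was used (adjusted p = 0.0622). The second-series ESC effect of Thbs1 was 4.1 and not called (adjusted p = 0.0801), and that of Ccn1 was 2.81 (adjusted p = 0.00058).

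Of the 6 reversed YAP targets 5 had a window, and Ccn2 had none. The TEAD motif GGAATG, searched on both strands, lay in 5 of their 6 windows, against 14.66% of all windows. It lay in 1 window of each of the 5 genes, and Lats2 has 2 windows, of which 1 holds it. The genes were listed as YAP and TEAD targets, so a share above that of all windows follows in part from the list. Members that were not reversed were not searched as a set. The motif is in capitals in the window of Ccn1 (chr3:145649936-145650235, minus strand), where it begins 103 bases before the start.
Ccn1: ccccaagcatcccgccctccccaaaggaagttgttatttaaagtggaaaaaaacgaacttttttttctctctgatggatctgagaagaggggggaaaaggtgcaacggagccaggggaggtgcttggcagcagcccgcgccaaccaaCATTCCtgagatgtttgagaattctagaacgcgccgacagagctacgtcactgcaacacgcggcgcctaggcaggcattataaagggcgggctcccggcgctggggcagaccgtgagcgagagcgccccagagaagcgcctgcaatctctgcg

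**Figure D3:**
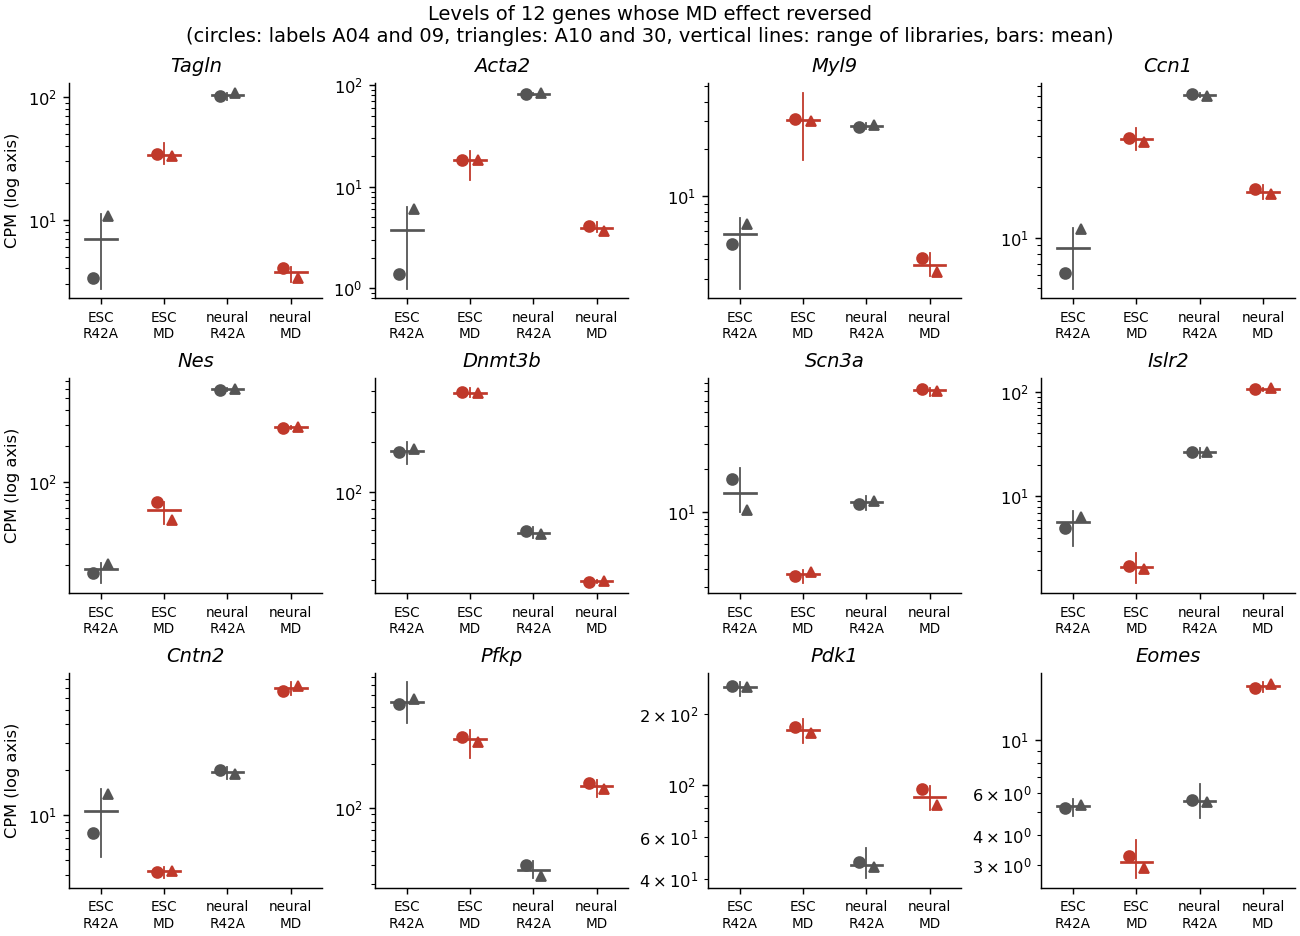
CPM (log axis) of 12 reversed genes in the 4 groups, with the sum of each clone label as a point, the range of its group's libraries as a vertical line and the mean as a bar. MD lies above R42A in ESC and below it in neural cultures for Tagln, Acta2, Myl9, Ccn1, Nes and Dnmt3b, and the other way round for Scn3a, Islr2, Cntn2, Pfkp, Pdk1 and Eomes.

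Of 23 tested endoderm markers, 9 had a lower interaction and 1 a higher one, against 11.1% and 11.9% over all genes. The list summed to 4277.1 and 5056.2 CPM in the R42A neural sums and to 1660.4 and 1781.6 in the MD sums, with a median neural MD effect of -1.36. The fibroblast and mesenchyme list had a median neural MD effect of 0.72, of the other sign, while its sum was 794.3 and 811.1 CPM in R42A and 620.7 and 631.8 CPM in MD. Of its 15 tested genes, 1 was higher and 2 lower. In bulk RNA, fewer cells of a type and less RNA per cell cannot be told apart. The part of other cell types in the contractile result was not tested.

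Among neuronal genes, the called differences were in the other direction, with an MD effect more positive in neural cultures. Scn3a, the pore-forming subunit of a sodium channel of the developing brain (chr2:65457118-65567627, minus strand), was at 17.0 and 10.3 CPM in R42A ESC and 3.54 and 3.82 in MD ESC. In neural cultures it was at 11.3 and 12 CPM in R42A and 72.8 and 70.5 in MD. It fell 3.71-fold with MD in ESC and rose 6.14-fold in neural cultures, an interaction of 4.51 ± 0.3 (adjusted p = 0.000349). Its second-series ESC effect was -1.72 (adjusted p = 0.00456).

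Further reversed genes of this direction act at the neuronal surface. Nxph4, a secreted ligand of neurexins, was at 2.16 and 2.56 CPM in R42A ESC, 0.395 and 0.457 in MD ESC, 5.39 and 5.47 in R42A neural cultures and 14.3 and 15.4 in MD neural cultures (interaction 3.92 ± 0.19, adjusted p = 0.000214). Islr2, a membrane protein of growing axons, was at 5.0 and 6.37 CPM in R42A ESC, 2.18 and 2.03 in MD ESC, 26.3 in both R42A neural sums, and 105.3 and 109.0 in MD neural cultures (3.46 ± 0.16, adjusted p = 0.000214). In ESC and in neural cultures the libraries of the genotypes were separate for both genes. The second-series ESC effect was -1.69 for Nxph4 (adjusted p = 0.00278) and -0.86 for Islr2, where it was not called (adjusted p = 0.106). The adhesion molecules Cntn2 (3.17 ± 0.34, adjusted p = 0.00149) and L1cam (2.57 ± 0.18, adjusted p = 0.000413) were also reversed. Lrrc31 had an interaction of 3.97 ± 0.6 (adjusted p = 0.00477). It is abundant in ESC only, at 8.55 and 17.8 CPM in R42A and 4.13 and 3.16 in MD, and was under 0.5 CPM in each neural sum. Its ESC libraries overlapped, and it was not called in limma voom (adjusted p = 0.0856).

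Mapt, the microtubule protein tau (chr11:104231390-104332090, plus strand), had the largest positive interaction among protein-coding genes called in neural cultures alone with a mean of at least 10 CPM in 1 group and an ESC effect under 0.5. It was at 12.6 and 30.7 CPM in R42A ESC and 18.2 and 21.3 in MD ESC, where the genotypes overlapped, and at 13.0 and 12.7 CPM in R42A neural cultures against 108.8 and 110.9 in MD. The interaction was 3.23 ± 0.5 (adjusted p = 0.00519). Of 25 tested neuron markers, 17 were higher and 0 lower, against 11.9% higher over all genes. The list's median MD effect was 0.05 in ESC and 1.52 in neural cultures. Gap43 of growth cones, Stmn2 and Stmn3 of the microtubule system, Snap25 of synaptic vesicle fusion, Gad1 of GABA synthesis and the RNA-binding proteins Elavl3 and Elavl4 were among those called. Tubb3, neuronal tubulin, had an interaction of 1.35 ± 0.41 that missed the threshold (adjusted p = 0.0541), with 272.3 and 281.0 CPM in R42A and 601.4 and 601.0 in MD neural cultures. Tubb3 lies on chromosome 8, and it was called when each chromosome was scaled separately. Dcx, Nefm, Syt1, Ina, Rbfox3 and Slc17a6 were not called.

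Among proneural and early neuronal transcription factors, 11 of 24 tested genes were higher and 0 lower, against 11.9% and 11.1% over all genes. Of the 24, 1, Pou4f1, was reversed, against 3.93% of all genes. Of the 11, 7 had an effect called in neural cultures alone and 3 at both stages in 1 direction. The list's median MD effect was 0.9 in ESC and 1.6 in neural cultures. Nhlh2, a basic helix-loop-helix factor of newborn neurons, was nearly silent in ESC, at 0.0431 and 0.0312 CPM in R42A and 0.0391 and 0.0223 in MD. It was at 17.8 and 18.0 CPM in R42A neural cultures and 98.4 and 101.9 in MD, a 5.6-fold rise, and its interaction was 2.72 ± 0.34 (adjusted p = 0.0023). With so few counts in ESC the interaction sets a neural effect against an ESC effect known only to ± 0.31. Myt1l, Ebf3, Neurod1 and Onecut2 were also higher, with an effect called in neural cultures alone. Ebf1, Onecut1 and Myt1 were higher too, but MD raised them at both stages (Ebf1 by 1.13 in ESC and 2.84 in neural cultures, log2). Nhlh2 and Myt1l were not called with second-series ESC (adjusted p = 0.0705 for Nhlh2). Neurog2 had a neural effect of 2.4, with 4.82 and 5.1 CPM in R42A and 26.8 and 25.6 in MD. Its ESC level of at most 0.0293 CPM left the interaction of 1.48 ± 0.82 uncalled (adjusted p = 0.278). Neurog1 was raised by MD at both stages, and its interaction of -0.44 was not called (adjusted p = 0.22).

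The E-box CAGCTG, a sequence that proneural helix-loop-helix factors bind, is shown for Nhlh2 because it is the factor of this list with the largest interaction. The 8 called factors with an entry have 15 windows, since some genes have several, and 3 of these 15 held it, in Nhlh2, Myt1l and Pou4f1, against 16.3% of all windows. It is in capitals in the window of Nhlh2 (chr3:102009895-102010194, plus strand).
Nhlh2: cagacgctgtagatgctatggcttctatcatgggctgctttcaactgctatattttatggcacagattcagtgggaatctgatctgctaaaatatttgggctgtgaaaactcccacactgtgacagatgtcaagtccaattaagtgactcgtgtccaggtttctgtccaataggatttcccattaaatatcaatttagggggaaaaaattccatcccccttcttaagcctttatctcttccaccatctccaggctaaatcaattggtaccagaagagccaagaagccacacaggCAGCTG

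Neural progenitor genes did not move as a group: 4 of 22 were higher and 6 lower, against 11.9% and 11.1% over all genes. Of the 22, 1 was reversed, against 3.93% over all genes. That gene was Nes, the intermediate filament nestin (chr3:87971078-87980451, plus strand), at 17.2 and 20.4 CPM in R42A ESC, 68.3 and 48.2 in MD ESC, 586.7 and 600.2 in R42A neural cultures and 282.4 and 289.9 in MD neural cultures. It rose 3.1-fold in ESC and fell 2.07-fold in neural cultures (interaction -2.68 ± 0.22, adjusted p = 0.000654), and was called in each of 35 alternatives. The ESC effect of Nes in the second series was 1.84 and, taken alone, not called (adjusted p = 0.0748). Cdh2, the adhesion protein N-cadherin, was raised 2.87-fold by MD in ESC, from 3.86 and 4.47 to 12.6 and 11.4 CPM. It reached 447.7 and 439.1 CPM in R42A and 452.0 and 464.3 in MD neural sums, and the single neural libraries of the genotypes overlapped. Its interaction of -1.48 ± 0.11 (adjusted p = 0.000486) was not called with second-series ESC (adjusted p = 0.0657). Hes3, a repressor of neuronal differentiation, had 21.2 and 20.6 CPM in R42A and 7.49 and 7.76 in MD neural cultures and at most 0.078 CPM in ESC (-1.82 ± 0.31, adjusted p = 0.00738). The Hes3 call was lost without 1 library of ESC clone 09 (adjusted p = 0.0521). Sox2 rose slightly in neural cultures alone (0.34 ± 0.07, adjusted p = 0.0118), though not with second-series ESC (adjusted p = 0.0853). Pax6 (-0.55, adjusted p = 0.483) and Sox1 (1.03, adjusted p = 0.146) were not called.

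Regional genes and the retinoic acid pathway held large single differences. Cyp26b1, an enzyme that degrades retinoic acid, was at 0.383 and 0.49 CPM in R42A ESC and 0.249 and 0.223 in MD ESC, with overlapping libraries. It was at 35.5 and 38.1 CPM in R42A neural cultures and 217.3 and 231.1 in MD (interaction 3.49 ± 0.17, adjusted p = 0.000214). With second-series ESC, where its effect was 1.58 (adjusted p = 0.265), the interaction was 1.02 and not called (adjusted p = 0.539), so its reversal rests on the first-series clones. In the retinoic acid list 4 of 17 were higher and 3 lower. In the forebrain list 5 of 15 were higher and 3 lower: Dlx1 (3.35 ± 0.35), Dlx2 (3.28 ± 0.35), Lhx2 (2.25 ± 0.17), Emx1 and Rax were higher, and Six3, Six6 and Otx2 lower. Dlx1 and Dlx2, factors of inhibitory neuron lineages, stayed under 4 CPM in each sum, whereas Lhx2 was at 14 and 15.2 CPM in R42A and 52.0 and 54.3 in MD neural cultures. In the midbrain and hindbrain list 0 of 14 were higher and 4 lower, among them the signal Fgf8, at 10.3 and 8.8 CPM in R42A and 2.94 and 2.92 in MD neural cultures. Of 23 Hox genes 3 were higher and 1 lower. Called in either direction were 41.2% of the retinoic acid list and 53.3% of the forebrain list. For the midbrain and hindbrain list the share was 28.6% and for Hox genes 17.4%, against 22.9% over all genes.

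The formative and primed genes, which mark cells leaving the ground state of ESC, had 11 of 17 called lower and 0 higher, with 5 reversed. The shares over all genes were 11.1% lower, 11.9% higher and 3.93% reversed. The list's median MD effect was 0.59 in ESC and -0.38 in neural cultures. Dnmt3b, a de novo DNA methyltransferase (chr2:153649450-153687730, plus strand), was at 173.8 and 180.1 CPM in R42A ESC, 396.9 and 390.7 in MD ESC, 58.5 and 56.8 in R42A neural cultures and 29.2 and 29.8 in MD neural cultures. The genotypes were apart at both stages, and the interaction of -2.12 ± 0.06 (adjusted p = 8.56e-05) was called in each of 35 alternatives. Fgf5 had the widest reversal of the list (-5.4 ± 0.69, adjusted p = 0.00263), at no more than 3.15 CPM in any sum, and lost its call without A04 (adjusted p = 0.0858) or A10 (adjusted p = 0.079). Otx2, Lef1 and Etv5 were the other reversed members. Pou3f1 was raised by MD in ESC alone, from 3.14 and 4.48 to 13.0 and 10.1 CPM (-1.4 ± 0.26, adjusted p = 0.00967).

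Of 20 naive pluripotency genes, 9 were higher and 1 lower, against 11.9% and 11.1% over all genes. The 4 reversed members of 20, against 3.93% over all genes, were Tcl1, Tet2, Esrrb and Tdh. Tet2, an enzyme that oxidises methylated cytosine, was at 392.4 and 305.4 CPM in R42A ESC and 232.3 and 242.5 in MD ESC, and at 41.8 and 39.7 CPM in R42A neural cultures and 71.5 and 69.4 in MD (1.34 ± 0.15, adjusted p = 0.00181). Other members were low after induction: Nanog was at 2.93 and 2.5 CPM in R42A and 5.39 and 4.03 in MD neural cultures, against 684.5 to 773.7 CPM in ESC. Its interaction of 0.92 ± 0.18 (adjusted p = 0.0135) was not called without A10 (adjusted p = 0.0768). Klf4 and Tbx3 fell with MD at both stages, and their interactions were not called (adjusted p = 0.181 and 0.117). The naive list summed to 6313.0 and 6539.6 CPM in R42A ESC, 5104.1 and 5331.8 in MD ESC, 184.8 and 203.5 in R42A neural cultures and 230.5 and 243.4 in MD neural cultures. Whether a few undifferentiated cells carry the neural part was not tested. Of the 7 core pluripotency genes, Lin28a and Sall4 were reversed lower, Sox2 and Tdgf1 were higher, and Pou5f1, Dppa2 and Dppa4 were not called. Lin28a, a blocker of let-7 maturation, was at 314.2 and 257.6 CPM in R42A ESC, 447.7 and 463.4 in MD ESC, 261.6 and 262.0 in R42A neural cultures and 147.2 and 152.1 in MD neural cultures.

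Of 23 tested genes of glycolysis and the hypoxia response, 13 were higher and 0 lower, against 11.9% higher over all genes, and 10 were not called. Many are targets of HIF transcription factors, which run glucose breakdown when oxygen is low. The 6 reversed members of 23, against 3.93% over all genes, were Pfkp, Ankrd37, Bnip3, Vegfa, Pdk1 and Egln3. The median MD effect of the list was -0.39 in ESC and 0.33 in neural cultures. Pfkp, the platelet-type phosphofructokinase (chr13:6579768-6648777, minus strand), was at 519.2 and 562.5 CPM in R42A ESC, 310.1 and 284.5 in MD ESC, 40.4 and 33.6 in R42A neural cultures and 149.4 and 134.1 in MD neural cultures (2.8 ± 0.15, adjusted p = 0.000224). Pdk1, a kinase that keeps pyruvate out of mitochondria, was at 263.6 and 258.8 CPM in R42A ESC, 175.4 and 165.6 in MD ESC, 46.9 and 44.8 in R42A neural cultures and 95.7 and 82.2 in MD neural cultures (1.57 ± 0.11, adjusted p = 0.000384). Both fell with MD in second-series ESC too, by 0.67 and 0.55 on the log2 scale. For both genes the libraries of the genotypes were apart at both stages, and both were called in each of 35 alternatives. Bnip3, a mitophagy receptor, was reversed (1.92 ± 0.22, adjusted p = 0.00189), but its second-series ESC effect was -0.1 (adjusted p = 0.46). Gapdh, Eno1, Pkm, Pgam1, Hk2, Slc2a3, Car9 and Ndrg1 were not called.

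**Figure D4:**
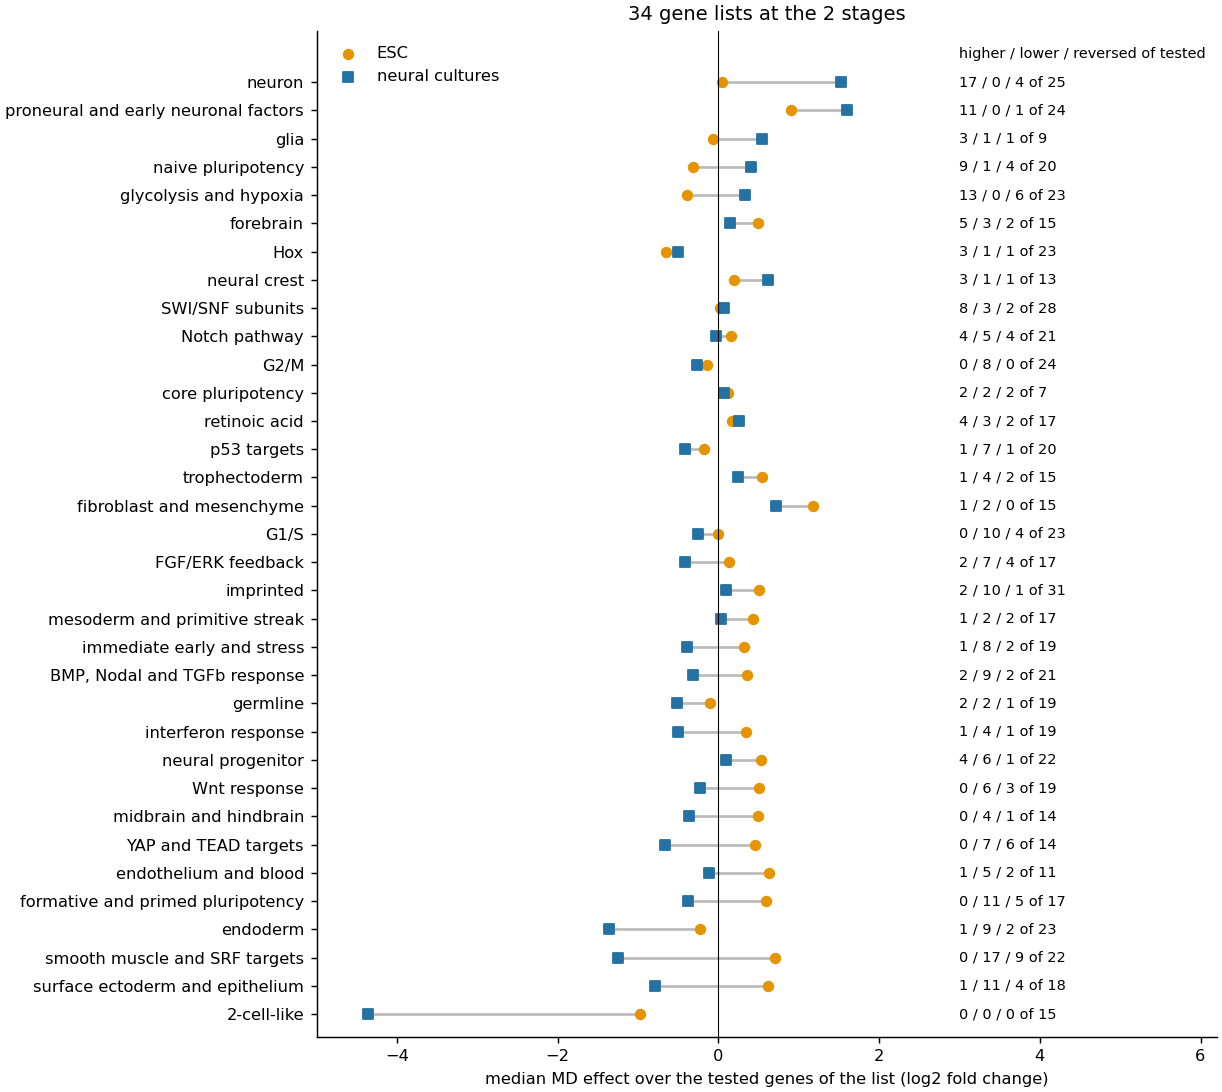
Median log2 MD effect over the tested genes of each of 34 lists in ESC (circles) and in neural cultures (squares), ordered by the list's median interaction. Numbers at the right give the members called higher, lower and reversed. The smooth muscle and SRF list runs from 0.7 in ESC to -1.25 in neural cultures, and the neuron list from 0.05 to 1.52.

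Genes that fell with MD in neural cultures alone came from several tissues. Apob, the apolipoprotein of yolk sac and liver lipoproteins, was at 2.83 and 1.7 CPM in R42A ESC, 2.32 and 3.65 in MD ESC, 18.1 and 19.1 in R42A neural cultures and 0.77 and 0.764 in MD neural cultures. It fell 24.3-fold in neural cultures, and its interaction was -5.0 ± 0.42 (adjusted p = 0.000682). Mme, the membrane peptidase neprilysin (chr3:63241537-63386030, plus strand), was at 64.8 to 80.9 CPM in all ESC sums and in R42A neural cultures at 66.7 and 65.9, but at 6.08 and 5.81 in MD neural cultures (-3.45 ± 0.18, adjusted p = 0.000224, called in each of 35 alternatives). Tinagl1, a matrix-associated protein (-3.61 ± 0.59), Tek, the angiopoietin receptor (-2.77 ± 0.29), and S100a11, a calcium-binding protein (-2.75 ± 0.37), had overlapping ESC libraries and separate neural ones. Genes that rose in neural cultures alone included, beside Mapt and Nhlh2, Moxd1 (2.89 ± 0.21), Pnma5 (3.12 ± 0.41) and Tmem132b (2.81 ± 0.28). Moxd1 was at 1.54 to 2.29 CPM in ESC, 13.9 in both R42A neural sums and 85.1 and 88.5 in MD neural cultures. Pnma5 was at 75.3 to 137.0 CPM in the ESC sums, and at 0.522 and 0.686 in R42A and 4.74 and 4.67 in MD neural cultures. It met the minimum of 10 CPM only through ESC. Pnma5 was not called in limma voom (adjusted p = 0.0587) and Tmem132b not with second-series ESC (adjusted p = 0.14).

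Of 23 endoderm genes, 9 were lower and 1 higher, against 11.1% and 11.9% over all genes. The lower ones include the secreted proteins of visceral endoderm and yolk sac Apob, Apoa1 and Ttr and the receptor subunit Amn, and the matrix genes Lamb1 and Sparc. The factors that define endoderm, Sox17, Gata4, Gata6, Foxa2 and Hnf4a, were not called. Of 18 genes of surface ectoderm and epithelium, 11 were lower and 1 higher, with 4 reversed, against 3.93% reversed over all genes. Esrp1, a splicing regulator of epithelia, was at 15.5 and 24.0 CPM in R42A ESC, 74.6 and 79.1 in MD ESC, 8.62 and 7.34 in R42A neural cultures and 4.3 and 3.74 in MD neural cultures (-2.94 ± 0.29, adjusted p = 0.00104). Tfap2a was the higher member (3.1 ± 0.45). Of 11 endothelial and blood genes 5 were lower and 1 higher, and Kdr, the main VEGF receptor, was reversed: 1.11 and 1.91 CPM in R42A ESC, 5.21 and 5.05 in MD ESC, 12.1 and 11.2 in R42A neural cultures and 3.31 and 3.21 in MD neural cultures (-3.61 ± 0.33, adjusted p = 0.000875). Of 17 mesoderm genes 1 was higher and 2 lower, and of 15 trophectoderm genes 1 and 4. Eomes, on both lists, was reversed higher, with 5.19 and 5.35 CPM in R42A ESC, 3.27 and 2.92 in MD ESC, 5.59 and 5.48 in R42A neural cultures and 16.5 and 17.3 in MD neural cultures (2.38 ± 0.14, adjusted p = 0.000281). Of 13 neural crest genes 3 were higher and 1 lower, and of 9 glial genes 3 and 1. Called in either direction were 17.6% of the mesoderm, 33.3% of the trophectoderm, 30.8% of the neural crest and 44.4% of the glial list. The share over all genes was 22.9%.

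The MD effect was called in ESC alone for a further set. Coro2b, an actin-binding coronin (chr9:62419492-62537044, minus strand), was at 17.0 and 18.8 CPM in R42A ESC and 2.71 and 2.57 in MD ESC, and at 19.9 ± 0.161 CPM in R42A and 23.1 ± 0.302 in MD neural cultures (SD, n = 2 labels). It fell 6.78-fold in ESC, its interaction was 2.98 ± 0.11 (adjusted p = 0.00015), and its second-series ESC effect was -2.71 (adjusted p = 9.68e-05). Rapgef3, a cAMP-activated exchange factor for Rap, was at 9.98 and 12.2 CPM in R42A ESC and 0.991 and 1.65 in MD ESC, and at 1.33 to 1.39 CPM in the 4 neural sums (3.05 ± 0.34, adjusted p = 0.0017). Mras, a Ras-family GTPase, was at 89.6 and 57.5 CPM in R42A ESC and 14.4 and 15.2 in MD ESC, near the 14.4 to 16.8 CPM of neural cultures (2.52 ± 0.26, adjusted p = 0.00131). For Rapgef3 and Mras, MD ESC stood near the neural level, whereas for Coro2b the R42A ESC did. Pde9a, a cGMP phosphodiesterase (2.6 ± 0.17, adjusted p = 0.000349), and Cacna1c, an L-type calcium channel (2.33 ± 0.5, adjusted p = 0.0166), were lower in MD ESC as well. Cacna1c was at only 0.948 and 1.68 CPM in R42A ESC and 0.415 and 0.178 in MD ESC. It met the minimum of 10 CPM only through its neural levels. Its second-series ESC effect was -1.49 and not called (adjusted p = 0.0752). Cacna1c reached an adjusted p of 0.0768 in the alternatives with both MD labels.

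The 5 genes with the largest negative interaction among those raised by MD in ESC alone, with a neural effect under 0.5 in size, passed the minimum of 10 CPM for naming by size only through their neural levels. Ndnf, a secreted neurotrophic protein, was at 0.465 and 0.347 CPM in R42A ESC, 3.62 and 2.82 in MD ESC and 51.2 to 60.2 in neural cultures (-2.8 ± 0.21, adjusted p = 0.000486). Itgb8, an integrin subunit, was at 0.0383 and 0.0935 CPM in R42A ESC, 1.47 and 0.791 in MD ESC and 88.9 to 93.9 in the neural sums of both genotypes (-4.09 ± 0.49, adjusted p = 0.00202). It was not called without A04 or without A10, where its adjusted p reached 0.0753. The protocadherins Pcdh7 (-3.3 ± 0.9) and Pcdh18 (-2.79 ± 0.5) and the protease Pappa (-2.82 ± 0.51) had the same shape. Their calls were less firm: with both MD labels kept, the highest adjusted p was 0.368 for Pcdh7, 0.23 for Pcdh18 and 0.0707 for Pappa. With the clone label as a block, the adjusted p of Pcdh7 was 0.0586.

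**Figure D5:**
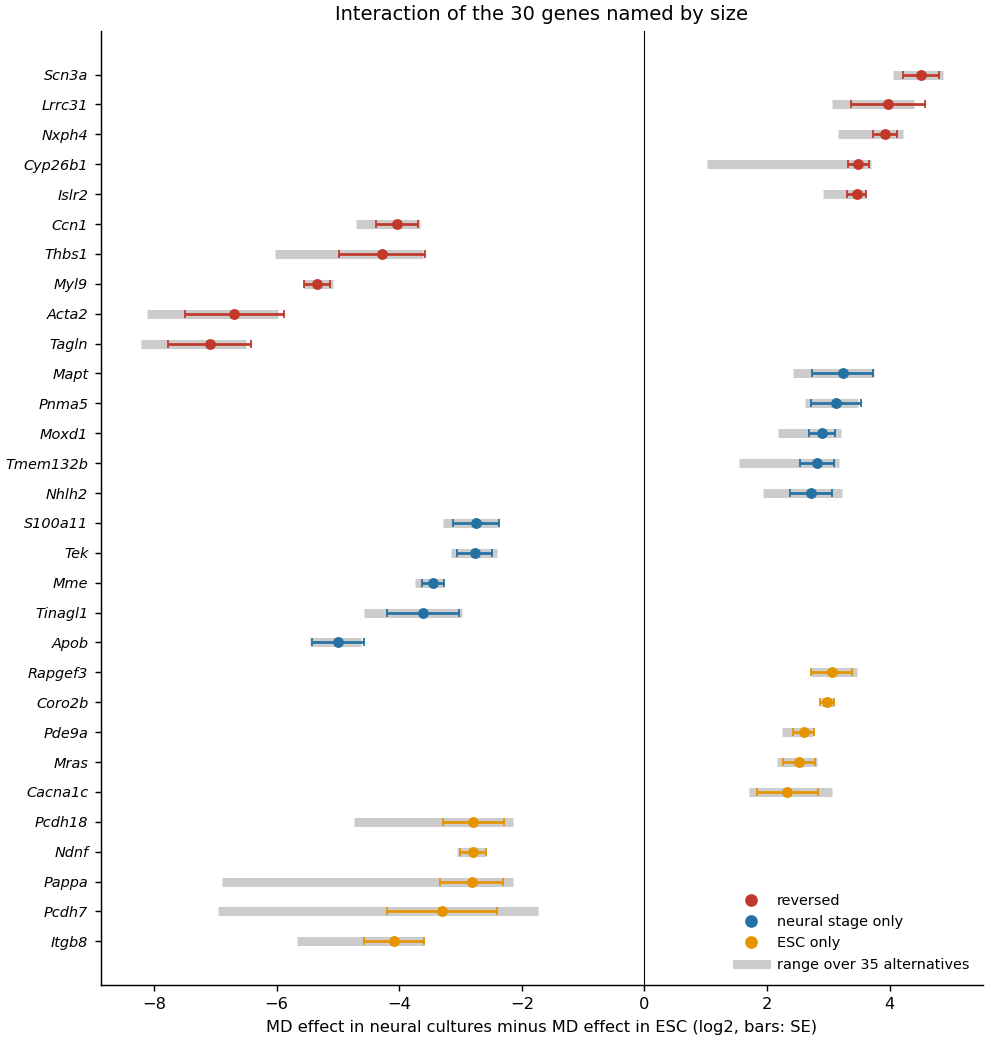
Interaction (x axis, log2, bars SE) of the 30 genes named by size in 3 patterns, with the range over 35 alternatives in grey. All 30 kept their sign in each alternative. The range of Cyp26b1 reaches 1.02 and that of Pcdh7 -1.73.

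Of 28 tested SWI/SNF subunits, 8 were higher and 3 lower, against 11.9% and 11.1% over all genes. The largest differences were those of Actl6b (3.66 ± 0.49, adjusted p = 0.00323) and Dpf3 (1.76 ± 0.31, adjusted p = 0.00857), which belong to the neuronal form of the complex. Ss18l1 (0.77), also of that form, was higher, and Dpf1 (-0.15, adjusted p = 0.52), also of that form, was not called. Actl6b was at 1.36 and 1.56 CPM in R42A and 8.29 and 8.27 in MD neural cultures and at most 0.0718 CPM in ESC. Actl6a, its counterpart in dividing cells, was reversed lower (-0.64). Smarcc2 was reversed higher (0.57), and its paralog Smarcc1 was lower (-0.33). Smarcd3 was lowered by MD in ESC, from 6.09 and 7.56 to 2.71 and 2.23 CPM, but was at 14.9 to 18.1 CPM in the neural sums (1.27 ± 0.2, adjusted p = 0.00551). The ATPase Smarca2 was lower, with an effect called in ESC alone (-0.76, adjusted p = 0.0349). The ATPase Smarca4 and the core subunit Smarcb1 were not called.

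Of 19 immediate early and stress genes 8 were lower and 1 higher, against 11.1% lower and 11.9% higher over all genes. Fosl2, an AP-1 subunit, was reversed, at 1.5 and 2.92 CPM in R42A ESC, 6.92 and 6.64 in MD ESC, 23.9 and 22.2 in R42A neural cultures and 6.76 in both MD neural sums (-3.38 ± 0.37, adjusted p = 0.00163). Egr1 rose with MD at both stages, 3.44-fold in ESC and 1.64-fold in neural cultures (-1.07 ± 0.17, adjusted p = 0.00524), and was not called with second-series ESC (adjusted p = 0.244). In the FGF/ERK list 7 of 17 were lower and 2 higher, in the BMP, Nodal and TGFb list 9 of 21 and 2, and in the Wnt list 6 of 19 and 0. No test across these lists was made. Tgfb2, a secreted ligand, was at 0.469 and 0.895 CPM in R42A ESC, 2.96 and 2.07 in MD ESC, 21.4 and 22.7 in R42A neural cultures and 6.87 and 7.3 in MD neural cultures (-3.52 ± 0.4, adjusted p = 0.00179). Of 21 Notch pathway genes 4 were higher and 5 lower, and the ligand Dll1 was not called.

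Of 31 imprinted genes 10 were lower and 2 higher, against 11.1% and 11.9% over all genes. Igf2, a fetal growth factor, fell with MD in neural cultures, from 318.7 and 317.2 to 78.3 and 77.0 CPM, and was at 2.33 and 7.37 CPM in R42A and 11.2 and 9.59 in MD ESC (-3.13 ± 0.59, adjusted p = 0.0108). H19, the noncoding RNA next to it, rose at both stages, 9.74-fold in ESC and 3.15-fold in neural cultures (-1.63 ± 0.35, adjusted p = 0.0168). Igf2 was not called when no filter on low counts was used, and H19 was called in 27 of 35 alternatives. Peg3, a paternally expressed zinc finger gene, rose in ESC alone, from 105.3 and 116.9 to 229.9 and 232.3 CPM (-0.97 ± 0.08, adjusted p = 0.000688).

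Cell cycle genes differed by little. Of 24 G2/M genes 8 were lower and 0 higher, and of 23 G1/S genes 10 and 0. The shares over all genes were 11.1% lower and 11.9% higher. Cdc20, an activator of the anaphase-promoting complex, was at 183.2 to 198.0 CPM in ESC, 141.1 and 143.3 in R42A neural cultures and 93.9 and 92.8 in MD neural cultures (-0.64 ± 0.07, adjusted p = 0.00163). Ccnd1, the cyclin of the G1 phase, was reversed, at 102.8 and 78.1 CPM in R42A ESC, 147.7 and 145.0 in MD ESC, 252.1 and 259.1 in R42A neural cultures and 186.2 and 191.2 in MD neural cultures (-1.13 ± 0.16, adjusted p = 0.00382). Mki67, Top2a, Pcna and Ccnb2 were not called. Of 20 p53 targets 7 were lower and 1 higher, and Cdkn1a was not called. In either direction, 26.3% of the interferon list and 21.1% of the germline list were called, against 22.9% over all genes. Of 19 interferon response genes 4 were lower and 1 higher, of 19 germline genes 2 and 2, and of 15 genes of 2-cell-like cells 0 in either direction. The last list summed to 144.5 and 1035.8 CPM in the R42A ESC clones and to 170.5 and 253.1 in the MD ESC clones. In neural cultures it summed to 3.69 and 3.85 CPM in R42A and to 0.5 and 0.611 in MD. Its median interaction was -2.9, but the single values were uncertain, as for Zscan4c (-2.59 ± 2.58, SE). The lack of calls in this list is therefore not shown to be a lack of difference.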

How the data were processed

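Per the labels' protocols, libraries were made from TRIzol RNA (KAPA Hyper Prep). The authors deposited expected counts for each gene, 1 table per library and not normalised, of which 1.46% to 1.7% were more than 1e-06 from a whole number. Per the submitters' processing notes, STAR 2.7.1a, RSEM 1.3.0, Trim Galore 0.60 and DESeq2 were used with build mm10, and no roles are given. The annotation release and whether counting used strand are not given in the sources used here, so overlapping and antisense genes are uncertain, as are near-identical copies. The 92 ERCC entries of 55665, all at 0, were left out. Positions of 55480 of 55573 genes come from GENCODE M21 (mm10). Promoter sequences are from RefSeq (GRCm38.p6).

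Expected counts were rounded and summed over the libraries of a clone label, since numbered libraries of 1 clone were taken as repeats of it. Nothing says that labels of 1 genotype are independent edits, so p-values measure the spread between these sums, which may be partly technical. The interaction was tested in 1 fit of 4 groups and 8 sums with edgeR 4.0.16 (R 4.3.3): the TMM scaling, a filterByExpr minimum count of 10, robust quasi-likelihood F-tests and Benjamini-Hochberg adjustment over all genes, called at an adjusted p under 0.05. CPM are per TMM-scaled library, not per length, so levels are compared within a gene only. The fit was also run on simulated counts, drawn with the same spread for every gene and group. In the data the ESC sums of A04 and A10 differ more than the other pairs, so that run does not show how the fit behaves here. Alternatives used limma 3.58.1, DESeq2 1.42.0, other scalings and filters, the clone label as a block, second-series ESC, and each clone and library left out.

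Genes named by size are protein-coding, called, and at a mean of at least 10 CPM in 1 group: 5 in each direction of the reversed, neural-only and ESC-only genes, the latter 2 with an effect under 0.5 (log2) at the other stage. A panel and up to 3 called genes of each of 34 lists were added. Members, panel and lists were chosen with earlier results of these data known. Sums of 1 label at the 2 stages carry the same clone name, but the main fit had no term for the label and took them as unpaired. Pairing entered only the alternatives with the label as a block. The check of pairing gave a correlation of deviations between stages of -0.134 for A04 and A10 and 0.016 for 09 and 30 over 10167 genes. No 2 libraries of a clone agreed within counting noise.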

Additional observations from a re-analysis of the deposited data

Results flagged for a closer look

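The interaction is itself a test of a difference between stages. It marked 5467 genes, of which 936 were reversed, and each of the genes named by size. Among reversed genes these were Scn3a (4.51), Lrrc31 (3.97), Nxph4 (3.92), Cyp26b1 (3.49) and Islr2 (3.46) upward, and Tagln (-7.09), Acta2 (-6.69), Myl9 (-5.34), Thbs1 (-4.28) and Ccn1 (-4.04) downward, all as log2 differences of the MD effect in neural cultures minus that in ESC. With the effect called in neural cultures alone they were Mapt (3.23), Pnma5 (3.12), Moxd1 (2.89), Tmem132b (2.81), Nhlh2 (2.72), Apob (-5.0), Tinagl1 (-3.61), Mme (-3.45), Tek (-2.77) and S100a11 (-2.75). With the effect called in ESC alone they were Rapgef3 (3.05), Coro2b (2.98), Pde9a (2.6), Mras (2.52), Cacna1c (2.33), Itgb8 (-4.09), Pcdh7 (-3.3), Pappa (-2.82), Ndnf (-2.8) and Pcdh18 (-2.79).

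Single libraries were marked as outlying in 5 of 40 gene and group pairs examined for the 10 reversed genes. Chance would give about 1 in 20 for independent libraries, which those sharing a clone label are not. Some of the gaps were small. In MD ESC, Scn3a had a library at 3.17 CPM and Thbs1 a library at 42.8 CPM, against medians of 3.7 and 29.0. In R42A ESC, Lrrc31 had a library at 3.95 CPM and Nxph4 a library at 0.706 CPM. In R42A neural cultures, Tagln had a library at 94.3 CPM, against a median of 107.3. The cause was not tested. All 5 genes kept their sign when each library was left out in turn.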

How the results depend on the processing

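The count of called genes (5467) and of reversed genes (936) stayed within 1.5 times under another filter, each chromosome scaled separately, second-series ESC, limma voom, DESeq2 and libraries as replicates. With the clone label as a replicate block 3848 genes were called (1942 higher, 1906 lower), and with crossed R42A labels, a pairing chosen after seeing the data, 4381. The block gives no separate effect per stage, so it has no count of reversed genes. Of 133 named genes, 7 lost their call under the block (Pcdh7, Sox10, Apoa4, Afp, Krt5, Hoxd1 and Cyp26c1) and no other call of theirs changed. Leaving out a clone sum, a clone or a library gave 77 to 10445 called genes, 37 to 5174 higher, 39 to 5271 lower and 31 to 2734 reversed. The lowest counts came without 09 (77) or 30 (114), where the spread rests on the R42A pairs. The highest came without the ESC sum of A04, left out alone after seeing the data.

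Of 124 named genes with a call, 123 kept the sign of the interaction in all 35 alternatives, 74 were called in each but those without 09 or 30, and 14 and 19 were called without 09 and without 30. St18 turned from 1.82 to -2.08 with second-series ESC (adjusted p = 0.439), and the cause was not tested. Pou5f1, not called at -0.09, was at 0.22 with second-series ESC and between -0.28 and 0.03 with 1 clone or library left out. With second-series ESC, 3693 of the 5467 genes were called again and 49 of 5450 had the other sign. Low counts in ESC limit genes such as Nhlh2, Neurog2 and Pappa, whose ESC effect rests on under 0.3 CPM.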

Other observations

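The interaction could not be set beside a second neural experiment, so the values below describe these libraries alone. Among genes outside the patterns named in the report, Tal1, a factor of blood and of some neurons, was called higher with an effect called in neural cultures alone: 2.12 and 1.82 CPM in R42A ESC, 1.49 and 1.47 in MD ESC, 0.752 and 0.787 in R42A neural cultures and 4.5 and 4.46 in MD neural cultures (interaction 2.95 ± 0.2, adjusted p = 0.000362). Tex14, a germ cell gene abundant in these ESC, was at 92.9 to 111.7 CPM in ESC sums, 0.274 and 0.335 in R42A neural cultures and 1.5 and 1.55 in MD neural cultures (2.14 ± 0.13, adjusted p = 0.000303). Id4, an inhibitor of helix-loop-helix factors, was at 48.1 and 51.1 CPM in R42A and 134.9 and 138.9 in MD neural cultures (1.85 ± 0.46, adjusted p = 0.0276).

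A further 2474 genes had an MD effect called in neural cultures and not in ESC without a called interaction, and 1632 had one called in ESC and not in neural cultures. For these genes the difference between stages was not shown, although a count of calls per stage would list them as specific to 1 stage.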
